A study of Mus musculus with 24 samples.

Results

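The mRNAs described here belong to the integrated stress response and were taken as a list of 10 genes: Atf4, Atf5, Ddit3, Ppp1r15a, Ppp1r15b, Ifrd1, Chac1, Trib3, Asns and Sesn2. They were chosen because translation of their coding sequences has been described as controlled by upstream reading frames, and all 10 had a row in both count tables, which held 23845 rows for RNA and 20436 for ribosome footprints. RNA-seq and ribosome profiling, which sequences the mRNA fragments protected by ribosomes (RPFs, or footprints), had been carried out on 24 libraries in 8 groups of 3. The groups were WT and Tsc2+/- slices that received vehicle (ACSF) or 100 µM DHPG for 5 min. DHPG activates the group I mGluRs, which are metabotropic receptors for glutamate. All came from male littermates aged 28 to 42 days. The Tsc2+/- mice carried a germline deletion of 1 copy of Tsc2, made by crossing the floxed allele to a CMV-Cre line, so the deletion was not limited to 1 cell type. The slices had lost CA3, were enriched for CA1 and were pooled over several mice for each library. All lysates had been prepared in cycloheximide, which holds ribosomes on the mRNA.

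When a kinase phosphorylates eIF2α, less initiator tRNA reaches the ribosome and most mRNAs are translated less. Some mRNAs behave in the opposite way. Their leaders carry short upstream reading frames that ribosomes normally translate instead of the coding sequence, and when initiation is slow, more ribosomes pass these frames and reach the main start. Atf4 is the best known of them, and its protein activates genes of amino acid supply and of recovery from stress. Footprints on the coding sequences of these mRNAs, relative to their RNA, are therefore commonly read as a sign of eIF2α phosphorylation, and the question here was how they compared over the 4 conditions.

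RNA libraries held 14801679 to 24067838 counts and RPF libraries 5296006 to 13613673. Tsc2 itself was lower in Tsc2+/- in both assays, by 0.52 on the log2 scale (SE 0.05) for vehicle RNA and by 0.74 (SE 0.07) for vehicle footprints, with an adjusted p of 2.03e-07 and 4.03e-07 in the edgeR test. In the RPF libraries of replicates 2 and 3, 98.1% of nonzero counts were even, against 48.7% in replicate 1, and all 80 member values there were even. A count in these libraries may therefore not stand for 1 fragment, and the counts given below are as deposited. The 4 CA1 markers (Wfs1, Fibcd1, Pou3f1 and Mpped1) summed to 1614 to 1786 CPM (counts scaled to library size with TMM) in RNA, and the 3 CA3 markers to 16.6 to 23.5 CPM. The 4 dentate gyrus markers summed to 43.0 to 65.4 CPM of RNA over the WT libraries and 35.9 to 49.4 CPM over the Tsc2+/- libraries, and the 3 red blood cell genes found summed to 15.8 to 32.9 and 2.59 to 17.7 CPM. These ranges overlapped, but within DHPG the dentate gyrus sums of the genotypes did not (50.9 to 65.4 against 35.9 to 44.3 CPM), and within vehicle those of the red blood cell genes did not (19.8 to 25.3 against 2.59 to 15.5 CPM). The test called 0 genes of either list between genotypes. At an unadjusted p under 0.05 in DHPG, 4 of 4 dentate gyrus markers were lower in Tsc2+/- in RNA (4.64% of all genes in either direction). In footprints 3 of 4 were (4.13%). In vehicle 1 of 4 was lower in RNA (4.90%) and 1 of 4 in footprints (6.55%). Of the red blood cell genes 0 of 3 reached it in RNA in either comparison. The median RNA difference, Tsc2+/- minus WT, was -0.36 in vehicle and -0.92 in DHPG for the dentate gyrus list and -1.20 and -1.26 for the red blood cell list. Their part in the genotype comparisons below was not tested. In bulk libraries, fewer cells of a type and less RNA per cell cannot be told apart. The counts of calls over all genes depended on WT vehicle replicate 2. Without it, the genes called after DHPG in WT went from 0 to 112 for RNA, from 4 to 26 for footprints and from 6 to 365 for TE (footprints per RNA), and those called between genotypes in vehicle from 13 to 31 for RNA and from 0 to 67 for TE.

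The leaders of the 10 mRNAs differed in how many upstream starts they carried. In the RefSeq annotation of GRCm38.p6 (mm10), with 1 transcript a gene, 7 of the 10 leaders held at least 1 ATG before the main start, as did 47.8% of the 12195 genes with a transcript model that were tested in both assays. Atf5 held 6, Atf4, Ppp1r15a and Ppp1r15b held 3 each, Ddit3 held 2, and Ifrd1 and Sesn2 held 1. That of Sesn2 opened 300 nt before the main start in a leader of 303 nt, next to the annotated 5′ end. Some ATGs of Atf5 and of Ddit3 shared a frame and its stop, so ATGs were more than separate frames. The leaders of Chac1, Trib3 and Asns held none in this transcript, so for these 3 genes the annotation did not show the feature by which the list was drawn up. Over all annotated coding transcripts an upstream ATG was found for 8 of 10 members and 74.4% of genes, Asns being the one added.

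The kind of frame is known to matter. After a frame that ends in the leader some ribosomes can resume scanning, whereas a frame that runs past the main start carries those that translate it beyond that start. Of the 10 members, Atf4 and Atf5 had a frame of the second kind, against 14.7% of the genes tested in both assays. Over all coding transcripts Ddit3 and Ifrd1 had one too, which made 4 of 10 members against 43.4% of genes. In Atf4 (chr15:80255184-80257545, plus strand) the frame that overlapped the coding sequence opened 97 nt before the main start, was 59 codons long and ended 83 nt past it. A frame of 3 codons preceded it, opening at 196 nt. The starts of Atf4 and Ppp1r15a, the overlapping and main starts of Atf5 and, for comparison, the starts of Ifrd1 are given below 5′ to 3′ with the start codon in capitals and its position in mm10.
Atf4 upstream start 1, chr15:80255303-80255305: tctctcATGgggc
Atf4 upstream start 2, chr15:80255582-80255584: gccaccATGgcgt
Atf4 upstream start 3, overlapping, chr15:80255681-80255683: taagccATGgcgc
Atf4 main start, chr15:80256299-80256301: cacaacATGaccg
Atf5 upstream start 5, overlapping, chr7:44815499-44815501: atttttATGaaga
Atf5 upstream start 6, overlapping, chr7:44815484-44815486: aataagATGaggt
Atf5 main start, chr7:44815164-44815166: acagccATGtcac
Ppp1r15a upstream start 1, chr7:45526232-45526234: tggacgATGttgg
Ppp1r15a upstream start 2, chr7:45526188-45526190: gattacATGcgat
Ppp1r15a upstream start 3, chr7:45526087-45526089: ggcgacATGaacc
Ppp1r15a main start, chr7:45525380-45525382: agacacATGgccc
Ifrd1 upstream start 1, chr12:40223156-40223158: agaaacATGtatc
Ifrd1 main start, chr12:40222954-40222956: cccacgATGccga

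The bases around a start codon help to decide how often it is used, and a purine 3 bases before it with a G just after it is the strong form. This motif (ANNATGG or GNNATGG, read on the transcript strand) was found at 46.3% of the main starts of 12154 genes and at 17.1% of their 15038 upstream ATGs. Among the members it was found at 2 of 10 main starts, those of Ddit3 and Ppp1r15b, and at 4 of 19 upstream ATGs. These 4 include that of Sesn2, which lies next to the annotated 5′ end. Both frames nearest to the Atf4 coding sequence opened in the motif, while the Atf4 main start did not. A match describes these letters and does not show that the codon was used.

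Footprints were counted over coding sequences less 30 nt at each end, so that ribosomes on frames ending in the leader were not counted. The overlapping frames ended 83 nt (Atf4) and 56 nt (Atf5) past the main start, and ribosomes on their last stretch fell inside the counted window. Footprints per RNA were then taken as footprint CPM per kb of coding sequence divided by RNA CPM per kb of transcript, relative to the median gene of the same library pair. In WT vehicle the members spread from percentile 0.156 to 76.3 of this measure. Atf5 was at 0.0727 ± 0.0158 (SD, n = 3) of the median gene, above only 0.156% of the genes tested in both assays. It was not among those genes, as its footprints did not pass the filter on low counts (6 to 12 per library in WT vehicle). Against all coding genes that passed the RNA filter it was at percentile 1.30. Ppp1r15a was at 0.0827 ± 0.0157 (percentile 0.262) and Atf4 at 0.168 ± 0.0251 (percentile 1.94). By this measure these 3 mRNAs were thus among the most weakly occupied in the slices. Atf5 and Ppp1r15a share their loci with other genes, whose reads may be included, and the part of these in the ratios was not tested. Atf4 stood at the 95.1 percentile of RNA per kb but the 68.7 percentile of footprints per kb.

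Ddit3, which encodes the transcription factor CHOP, was at 0.401 ± 0.0570 of the median gene. Ifrd1, Sesn2 and Ppp1r15b followed at 0.684 ± 0.0567, 0.686 ± 0.122 and 0.721 ± 0.0695, and differed from one another by less than 1 SD of Sesn2. Chac1, which encodes an enzyme that breaks down glutathione, was at 0.998 ± 0.195. Asns, the asparagine synthetase, was the one member well above the median gene, at 1.73 ± 0.103 (percentile 76.3). Trib3 had 6 to 13 RNA counts and 1 to 4 footprints per library in WT vehicle, too few to place it (0.770 ± 0.420).

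**Figure D1:**
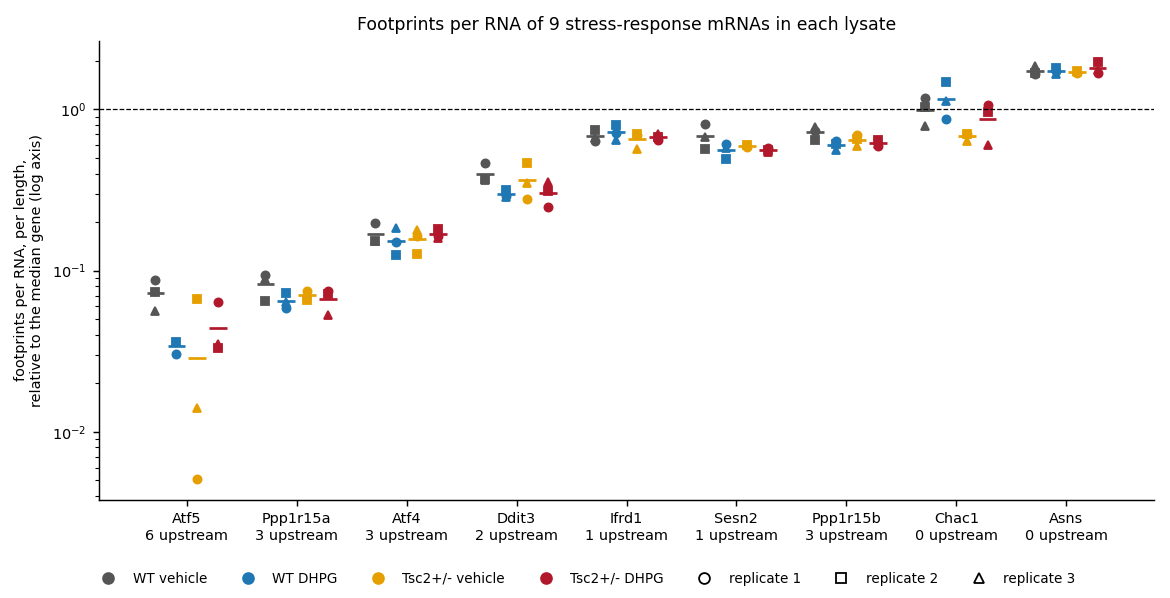
Footprints per RNA, per length and relative to the median gene of the same library pair (log axis), for 9 members in each of the 12 lysates, with the number of upstream ATGs under each name. Colours mark the 4 conditions, symbols the replicate number, short bars the mean of 3, and the dashed line the median gene. Atf5, Ppp1r15a and Atf4 lie far below the line in every lysate and Asns, at 1.65 to 1.98, above it. Trib3 is left out for its low counts.

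In every condition Atf5, Ppp1r15a and Atf4 were the lowest of these 9 members and Asns the highest. Over the 12 lysates Atf4 ranged from 0.125 to 0.197 of the median gene, Ppp1r15a from 0.0530 to 0.0943 and Asns from 1.65 to 1.98, so that none of these ranges met. Among all genes, those with no upstream ATG had a median of 1.17 (quartiles 0.710 and 1.84, 6368 genes), those with 1 had 0.946, those with 2 or more had 0.811 (quartiles 0.470 and 1.39, 3175 genes), and those with a frame overlapping the main start had 0.779. Atf4, Atf5, Ppp1r15a and Ddit3 were below the lower quartile of the genes with 2 or more, and Ppp1r15b was inside its quartiles with the same 3 upstream ATGs as Atf4. For Ddit3 this rested on the transcript used. With mean lengths over its coding transcripts it was at 0.517, above that quartile, which was taken with 1 transcript a gene. Genes with upstream ATGs also had longer leaders (median 268 nt against 108 nt), which cannot be told apart from their number here.

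**Figure D2:**
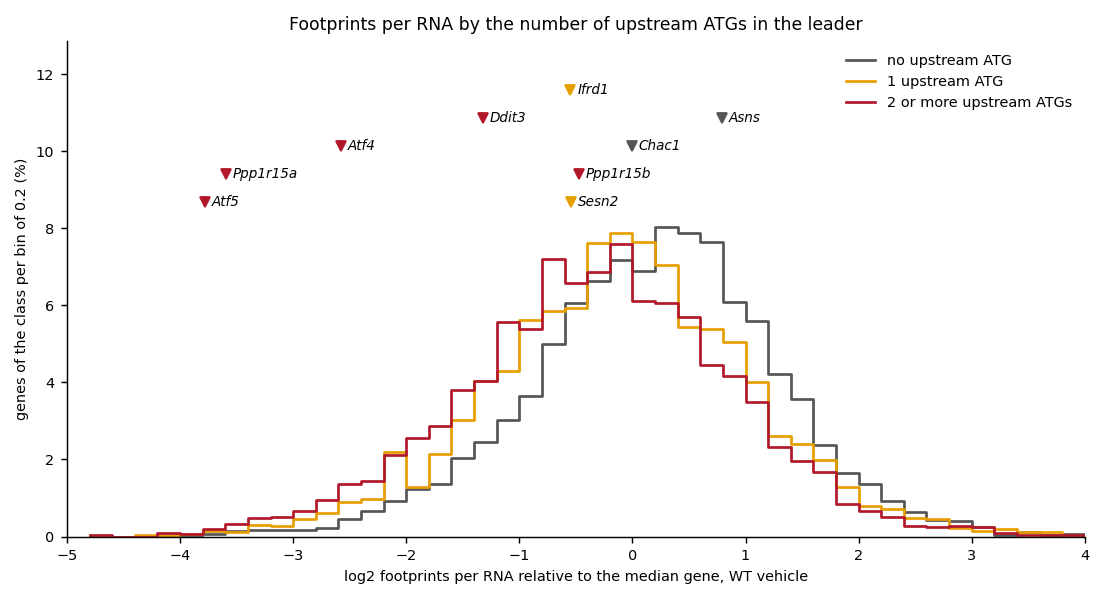
Distribution of log2 footprints per RNA in WT vehicle over genes with no, 1, and 2 or more upstream ATGs (percent of the class per bin of 0.2), with the members as triangles coloured by class. The 3 classes overlap widely with medians of 1.17, 0.946 and 0.811, and Atf5, Ppp1r15a and Atf4 lie in the far left tail. The height of a triangle carries no value.

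RNA and footprints of each member were next followed over the 4 conditions, in the order of their roles. Atf4, the transcription factor at the centre of the response, had RNA of 157, 160 and 199 CPM in WT vehicle, 156, 171 and 182 CPM in WT DHPG, 153, 168 and 168 CPM in Tsc2+/- vehicle and 149, 174 and 174 CPM in Tsc2+/- DHPG. Its footprints were 40.0, 31.4 and 38.8 CPM in WT vehicle, 30.6, 27.6 and 42.6 CPM in WT DHPG, 32.5, 27.6 and 38.3 CPM in Tsc2+/- vehicle and 31.3, 40.4 and 35.4 CPM in Tsc2+/- DHPG. All 4 groups overlapped in both assays.

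Atf5, a related transcription factor, had RNA of 16.6 to 22.0 CPM over the 12 libraries but only 1 to 12 footprints in any of them. Its footprints did not pass the filter on low counts and were not tested with the others. Trib3, a pseudokinase that restrains ATF4, was close to absent, with 0 to 25 RNA counts and 0 to 5 footprints. Its 0 in the RNA of Tsc2+/- DHPG replicate 3 allows up to 0.133 CPM (3 counts), and its 2 footprint values of 0 allow up to 0.398 CPM. Such limits cover counting error only and take 1 count as 1 fragment.

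Ppp1r15a (GADD34) and Ppp1r15b (CReP) encode the subunits that direct protein phosphatase 1 to eIF2α, the first induced by stress and the second made at all times. Ppp1r15a footprints were 11.9, 8.78 and 13.7 CPM in WT vehicle, 7.86, 9.53 and 10.4 CPM in WT DHPG, 10.02, 9.55 and 10.3 CPM in Tsc2+/- vehicle and 9.25, 9.72 and 8.497 CPM in Tsc2+/- DHPG. Ppp1r15b footprints were 59.2, 52.5 and 59.0 CPM in WT vehicle, 50.5, 48.1 and 47.6 CPM in WT DHPG, 53.6, 57.5 and 52.4 CPM in Tsc2+/- vehicle and 51.6, 52.0 and 51.7 CPM in Tsc2+/- DHPG. For Ppp1r15b the WT DHPG libraries were the 3 lowest of the 12, while the Ppp1r15a groups overlapped. Ddit3 footprints were 8.44, 6.78 and 10.3 CPM in WT vehicle, 5.75, 6.35 and 6.08 CPM in WT DHPG, 5.69, 9.02 and 7.95 CPM in Tsc2+/- vehicle and 4.32, 6.73 and 6.84 CPM in Tsc2+/- DHPG, from 35 to 79 counts each. Ddit3 shares its locus with Mars1 and Mbd6, Ppp1r15a with Tulp2, and Atf5 with Nup62 and Il4i1b. Whether the counting used the strand is not given in the sources used here, so reads of these neighbours may be included.

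Among the products of ATF4 activity, Chac1 RNA was 5.98, 6.97 and 9.45 CPM in WT vehicle, 8.73, 5.26 and 9.75 CPM in WT DHPG, 8.60, 9.44 and 10.6 CPM in Tsc2+/- vehicle and 7.01, 8.93 and 10.8 CPM in Tsc2+/- DHPG. Asns footprints were 215, 213 and 280 CPM in WT vehicle, 228, 227 and 234 CPM in WT DHPG, 243, 255 and 227 CPM in Tsc2+/- vehicle and 244, 268 and 255 CPM in Tsc2+/- DHPG. The Tsc2+/- DHPG libraries were all above the WT DHPG libraries for Asns footprints, and all Chac1 groups overlapped in RNA. Sesn2, which encodes a leucine-binding inhibitor of mTORC1, had RNA of 17.7 to 29.5 CPM and footprints of 13.2 to 21.3 CPM. Ifrd1, a transcriptional co-regulator, had RNA of 54.1 to 65.2 CPM and footprints of 58.5 to 70.8 CPM, the narrowest footprint range of all members relative to its level.

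**Figure D3:**
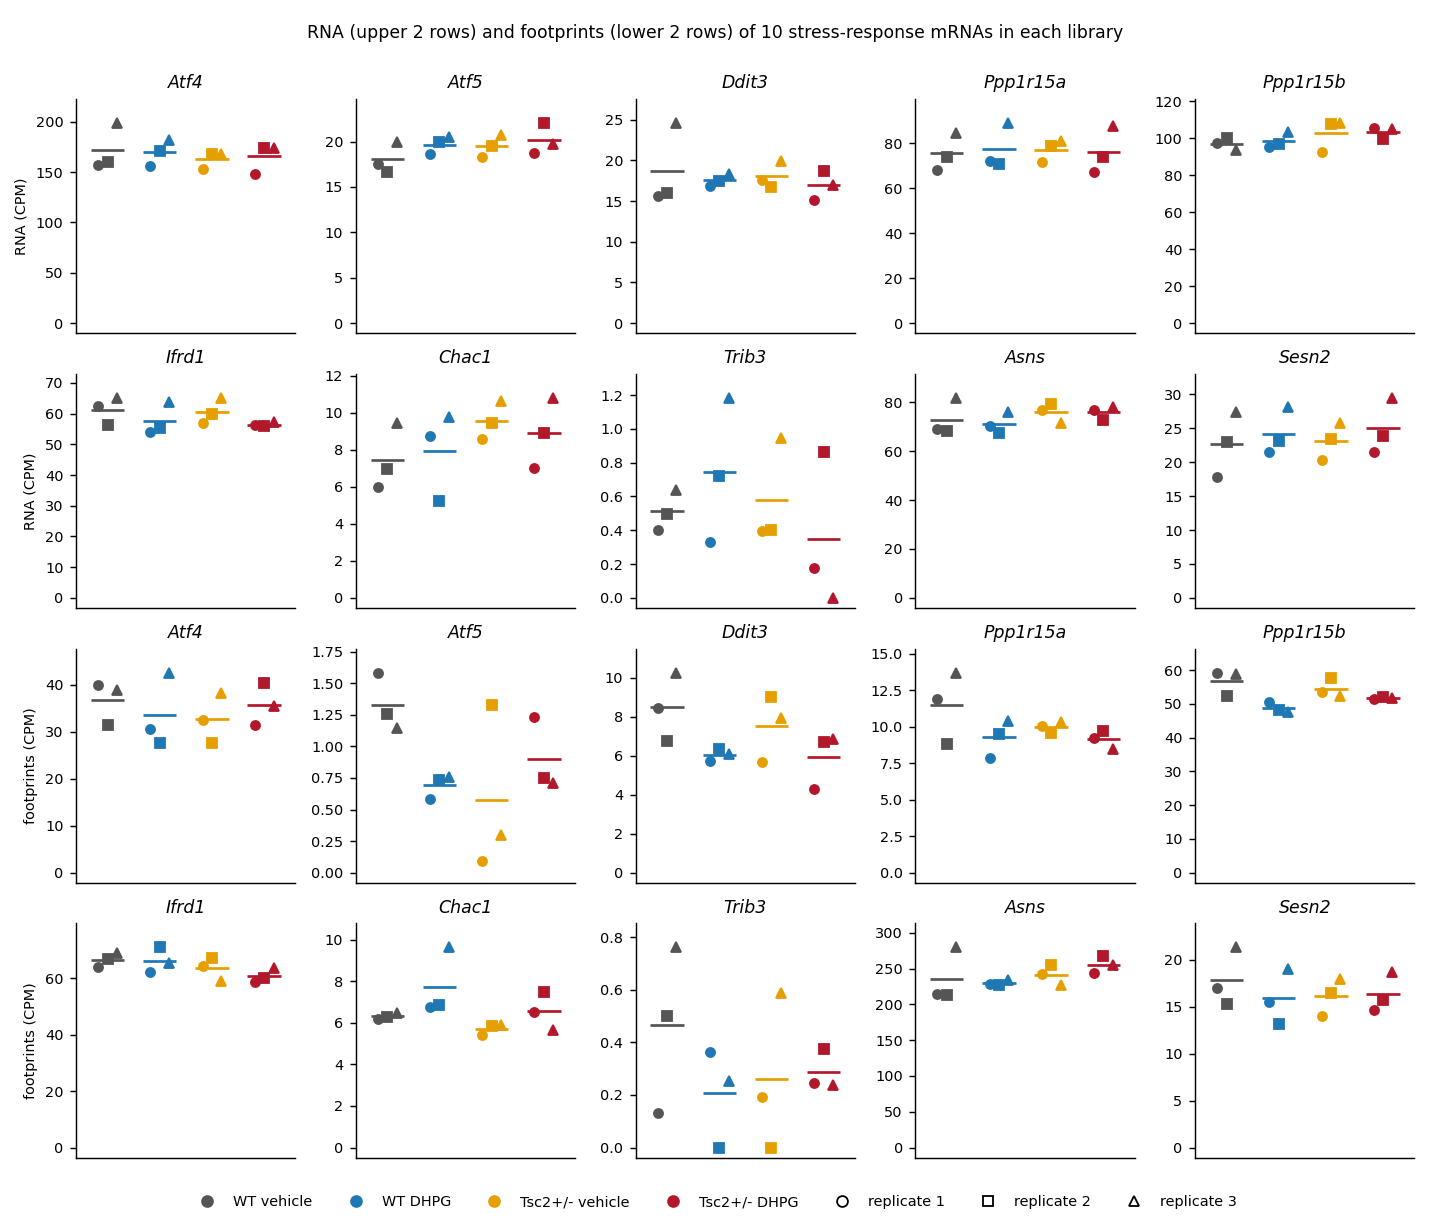
CPM of the 10 members in each library, RNA in the upper 2 rows and footprints in the lower 2, with 3 libraries a group, symbols for the replicate number and bars for the group mean. Scales differ between panels and each includes 0. Groups share much of their range in most panels, and the 3 WT DHPG libraries are the lowest for Ppp1r15b footprints.

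In vehicle slices, no member passed the test between Tsc2+/- and WT. The edgeR test called 0 of 10 members for RNA, 0 of 8 for footprints and 0 of 8 for TE at an adjusted p under 0.1, where it called 0.0896% of all genes for RNA, 0.0233% for footprints and 0% for TE. At an unadjusted p under 0.05 there was 1 member for RNA (4.90% of all genes), none for footprints (6.55%) and none for TE (5.67%). That member was Chac1, whose RNA was higher in Tsc2+/- by 0.36 on the log2 scale (SE 0.16, 95% CI 0.04 to 0.69, unadjusted p 0.0285, adjusted p 0.983) and higher in all 3 same-numbered contrasts. Atf4 footprints differed by -0.17 (95% CI -0.43 to 0.09) and Atf4 TE by -0.09 (95% CI -0.36 to 0.18). The 8 TE differences were all below 0 in this fit, with a median of -0.13 against 0.01 over all genes. They share the same libraries, and the sign did not hold for all members under the alternatives. There the differences reached 0.04 for Atf4, 0.18 for Ddit3, 0.03 for Ifrd1 and 0.06 for Asns. The lowest TE difference in this fit was that of Chac1, at -0.50 (95% CI -1.07 to 0.06). Footprints of the members other than Atf4 differed by -0.18 (Ppp1r15a and Ddit3), -0.15 (Chac1), -0.14 (Sesn2), -0.06 (Ppp1r15b and Ifrd1) and 0.04 (Asns). RNA of Atf5 differed by 0.11 (95% CI -0.09 to 0.32) and that of Trib3 by 0.19 (95% CI -1.16 to 1.55). For 1 of 8 members, Chac1, the footprint libraries of the groups did not overlap, which held for 8.29% of all genes.

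After DHPG, the genotypes again gave 0 members called, in RNA (0.0482% of all genes called), in footprints (0.0155%) and in TE (0%). At an unadjusted p under 0.05 there were no members for RNA (4.64% of all genes) or TE (3.03%) and 1 of 8 for footprints (4.13%). Asns footprints were higher in Tsc2+/- by 0.15 (SE 0.07, 95% CI 0.0004 to 0.30, unadjusted p 0.0494, adjusted p 0.9995) and higher in all 3 same-numbered contrasts. Its RNA differed by 0.09 (95% CI -0.05 to 0.23). Atf4 footprints differed by 0.09 (95% CI -0.16 to 0.34). The other footprint differences ran from -0.24 (Chac1) through -0.12 (Ifrd1), -0.06 (Ddit3), -0.01 (Ppp1r15a) and 0.03 (Sesn2) to 0.08 (Ppp1r15b). RNA of Atf5 differed by 0.04 (95% CI -0.17 to 0.25) and that of Trib3 by -1.12 (95% CI -2.54 to 0.29). Groups did not overlap for 2 of 8 members, Asns and Ppp1r15b, and for 10% of all genes.

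DHPG in WT slices gave no call either. No member was called for RNA (0% of all genes called), footprints (0.0311%) or TE (0.0469%). For RNA no member reached an unadjusted p under 0.05 (6.45% of all genes). For footprints 2 of 8 members did (6.71%). Ppp1r15b was lower after DHPG, with a difference of -0.22 (SE 0.09, 95% CI -0.40 to -0.04, unadjusted p 0.0189, adjusted p 0.674), and Ddit3 was lower with a difference of -0.46 (SE 0.22, 95% CI -0.91 to -0.02, unadjusted p 0.0425, adjusted p 0.731). Both were lower in all 3 same-numbered contrasts. For TE 2 of 8 members reached it, where 9.14% of all genes did. These were the phosphatase subunits Ppp1r15b, at -0.23 (95% CI -0.45 to -0.02, adjusted p 0.503), and Ppp1r15a, at -0.34 (95% CI -0.67 to -0.01, adjusted p 0.533). The Ppp1r15a value depended on single lysates, at -0.16 without WT DHPG replicate 1 and -0.53 without WT vehicle replicate 2. Ddit3 footprints were at -0.31 without WT vehicle replicate 1 and -0.70 without WT vehicle replicate 2. Footprints of 7 of the 8 members were lower after DHPG, with a median of -0.15 against -0.0019 over all genes, and Chac1 was the exception at 0.28 (95% CI -0.16 to 0.72). Atf4 was at -0.15 for footprints (95% CI -0.40 to 0.11) and -0.13 for TE (95% CI -0.39 to 0.14). Over the alternatives its footprint difference ran from -0.28 to -0.01 and its TE difference from -0.32 to 0.02. Footprints of Sesn2, Asns and Ifrd1 were at -0.16, -0.03 and -0.01, and RNA of Atf5 and Trib3 at 0.13 (95% CI -0.08 to 0.34) and 0.53 (95% CI -0.81 to 1.87). Groups did not overlap for Ppp1r15b, Ddit3 and Chac1, 3 of 8 members, against 8.96% of all genes. WT vehicle is shared by this comparison and the vehicle comparison of genotypes, and WT vehicle replicate 3 was the highest of the 12 libraries for 4 of 8 members in footprints (Ddit3, Ppp1r15a, Asns and Sesn2) and for 4 of 10 in RNA (Atf4, Ddit3, Ifrd1 and Asns). It was the highest for 14.4% and 11.4% of all genes tested. Without it the footprint differences were -0.18 for Ppp1r15b, -0.38 for Ddit3, -0.20 for Ppp1r15a, 0.11 for Asns and -0.13 for Sesn2, and Ddit3 RNA went from -0.08 to 0.12, with no call in either setting.

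In Tsc2+/- slices, DHPG gave 0 members called, with 0% of all genes called for RNA, for footprints and for TE. No member reached an unadjusted p under 0.05 for RNA (4.32% of all genes), footprints (4.03%) or TE (3.65%). Of the 8 footprint differences 4 were above 0 and 4 below, with a median of -0.02. Ddit3 was at -0.34 (95% CI -0.81 to 0.12), Ppp1r15b at -0.08 (95% CI -0.26 to 0.11) and Atf4 at 0.11 (95% CI -0.14 to 0.37). Ppp1r15a was at -0.13, Ifrd1 at -0.06, Sesn2 at 0.02, Asns at 0.08 and Chac1 at 0.19. RNA of Atf5 was at 0.05 (95% CI -0.15 to 0.26) and that of Trib3 at -0.79 (95% CI -2.22 to 0.64). Groups did not overlap for 1 of 8 members, Ppp1r15b, and for 9.42% of all genes.

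The interaction of genotype and DHPG, which tests whether the response differed between genotypes, called 0 members and 0% of all genes in RNA, footprints and TE. No member reached an unadjusted p under 0.05, where 3.47% of all genes did for RNA, 3.81% for footprints and 4.07% for TE. For Atf4 footprints the interaction was 0.26 (SE 0.18, 95% CI -0.10 to 0.62), the largest of the 8 in this fit. It ran from 0.06 without replicate 2 to 0.52 without replicate 3, and of single libraries Tsc2+/- DHPG replicate 2 moved it most, to 0.07, and without WT vehicle replicate 1 it was 0.14. The intervals of most members were wide against these differences. The other footprint interactions were -0.09 (Chac1), -0.05 (Ifrd1), 0.11 (Asns), 0.12 (Ddit3), 0.14 (Ppp1r15b), 0.17 (Ppp1r15a) and 0.18 (Sesn2), and those of RNA were -0.08 for Atf5 and -1.32 for Trib3 (95% CI -3.29 to 0.65). For Ddit3 footprints, at 35 to 79 counts a library, the interval ran from -0.53 to 0.76.

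**Figure D4:**
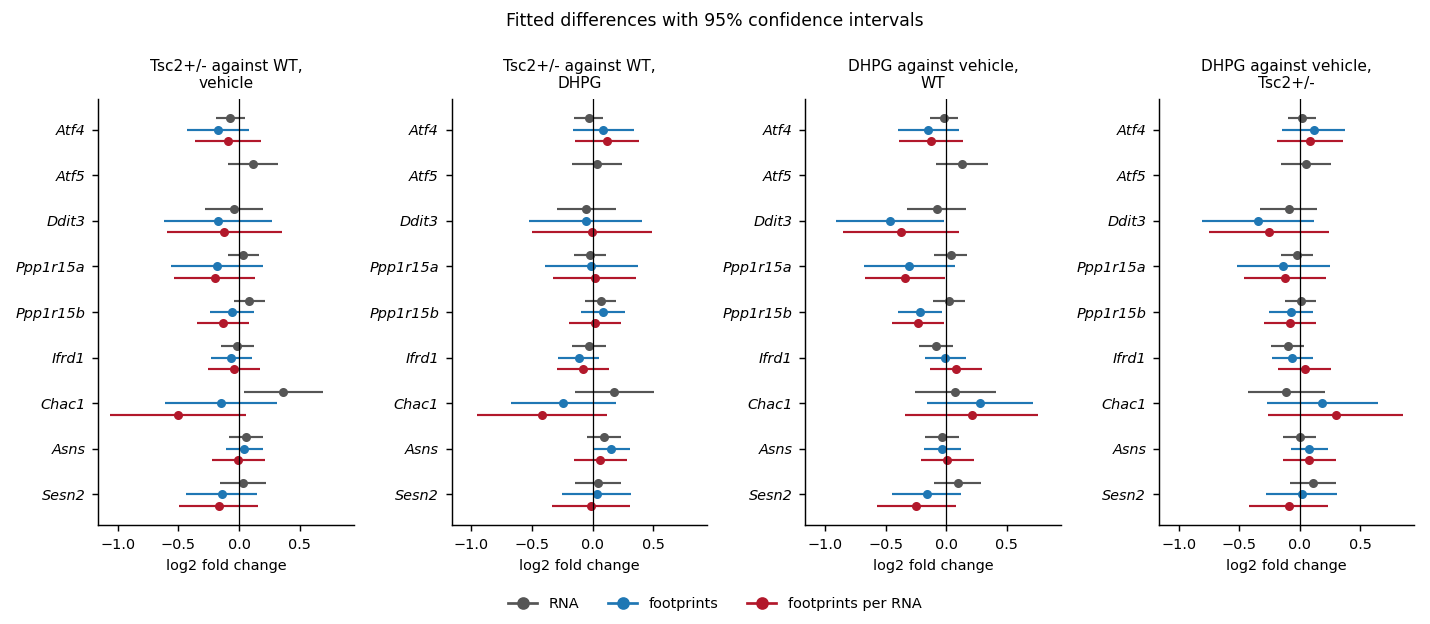
Fitted log2 fold changes with 95% confidence intervals for 9 members in 4 comparisons, for RNA, footprints and footprints per RNA (TE). Atf5 has RNA values only, and Trib3 is left out for its wide RNA interval. Most intervals include 0, and those of Ppp1r15b and Ddit3 footprints after DHPG in WT end just below it, at -0.04 and -0.02.

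The rest of the pathway was taken from 6 lists with 81 genes in all: the eIF2 kinases, the eIF2 and eIF2B subunits with the catalytic subunits of protein phosphatase 1, ATF4 target genes, aminoacyl-tRNA synthetases induced by ATF4, endoplasmic reticulum chaperones with other genes of the unfolded protein response, and other mRNAs with described upstream reading frames. Over RNA, footprints, TE and the 5 comparisons, 0 of 1230 tests of these genes gave a call. The tests of Cebpb and Eprs, which each stood on more than 1 list, are counted for each list. At an unadjusted p under 0.05, footprints of 6 of 20 chaperone and unfolded protein response genes were higher in Tsc2+/- vehicle than in WT vehicle. Those of 0 were lower (6.55% of all genes in either direction), and the list's median was 0.10 against -0.0021 over all genes. No other list and comparison had as many genes in 1 direction. Of the eIF2 and eIF2B subunit list, which also held Eif2a and the phosphatase catalytic subunits, 3 of 12 genes were higher and 0 lower after DHPG in WT. This held in footprints (6.71% of all genes) and in TE (9.14%), with Ppp1cb among the 3 in TE. The same counts held for the list's TE in Tsc2+/- vehicle against WT vehicle (5.67%). Of single genes the smallest p in each list belonged to Ppp1cb, a catalytic subunit of protein phosphatase 1, with a TE difference after DHPG in WT of 0.31 (SE 0.08, adjusted p 0.173), to the chaperone Hspa5 (BiP), with a footprint difference between genotypes in DHPG of 0.16 (SE 0.04, adjusted p 0.998), and to the amino acid transporter Slc7a3, with a footprint difference in the same comparison of 0.49 (SE 0.16, adjusted p 0.9995). In the remaining lists it belonged to the methionyl-tRNA synthetase Mars (0.25, SE 0.09, adjusted p 0.9995, footprints between genotypes in DHPG), the kinase Eif2ak1 (0.14, SE 0.06, adjusted p 0.983, RNA between genotypes in vehicle) and Cebpa (-0.25, SE 0.11, adjusted p 0.997, RNA between genotypes in DHPG).

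RNA of 7 of the 10 members spanned a wider range over the means of the replicate numbers than over those of the conditions, as did 37.3% of all genes. For footprints 2 of 8 members did, Atf4 and Sesn2, against 41.6% of all genes. The numbers are the only label that could stand for a batch, and this test was chosen after the values had been seen. RNA of 3 of the 10 members differed between replicate numbers at an adjusted p under 0.1, as did 2.54% of all genes: Sesn2 (adjusted p 0.00364), Ppp1r15a (adjusted p 0.00404) and Atf4 (adjusted p 0.0216). Sesn2 RNA averaged 20.3 CPM over the 4 replicate 1 libraries, 23.3 over replicate 2 and 27.7 over replicate 3. For Ppp1r15a the means were 69.7, 74.3 and 85.5 CPM, and for Atf4 154, 169 and 181 CPM. Replicate 3 was above replicate 1 in all 4 conditions for each of the 3 genes. The means of Sesn2 spanned 0.45 on the log2 scale over replicate numbers against 0.15 over conditions, those of Ppp1r15a 0.29 against 0.04, and those of Atf4 0.23 against 0.07. Atf4 was no longer called without Tsc2+/- DHPG replicate 1 (adjusted p 0.101) or without WT DHPG replicate 1 (adjusted p 0.104), the highest of its alternatives, which began at 0.00160. Chac1 RNA was 0.43 higher in replicate 3 than in replicate 1 (adjusted p 0.124). For footprints, with the counts as deposited and not halved, 0 of 8 members were called and 4.65% of all genes were. The lowest was Sesn2, 0.33 higher in replicate 3 than in replicate 1 (adjusted p 0.160), and Atf4 was called without Tsc2+/- DHPG replicate 2 (adjusted p 0.0358, against up to 0.620 under the other alternatives). Cell markers differed between the numbers too. In RNA the test called 3 of 6 microglia and 2 of 5 astrocyte markers, all lower in replicate 3 than in replicate 1, and 3 of 5 oligodendrocyte markers (Cnp, Mbp and Mobp), all higher. In footprints it called 5 of 6 microglia, 3 of 5 astrocyte and 3 of 4 CA1 markers, all lower, and 4 of 5 oligodendrocyte markers, 1 higher and 3 lower. The 6 microglia markers summed to 214 to 236 CPM of RNA in the replicate 3 libraries, 241 to 258 CPM in replicate 1 and 255 to 274 CPM in replicate 2, so replicate 3 was the lowest. In footprints they summed to 285 to 328 CPM in replicate 3, 361 to 494 CPM in replicate 1 and 377 to 412 CPM in replicate 2. Their part in the differences of the members was not tested.

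**Figure D5:**
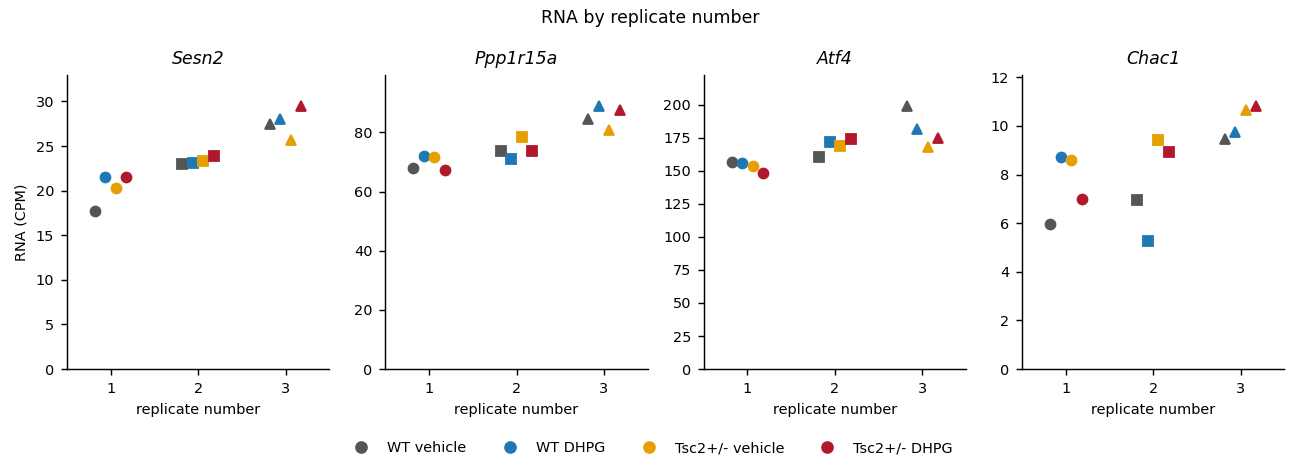
RNA in CPM of Sesn2, Ppp1r15a, Atf4 and Chac1 by replicate number, 1 point a library, coloured by condition. The replicate 3 libraries of Sesn2 (25.7 to 29.5 CPM) and Ppp1r15a (80.9 to 88.9 CPM) lie above all others, whereas the conditions mix within each number.

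The genes whose pattern was most like that of Atf4 were found by Pearson's r of log2 CPM over the 12 libraries of an assay, after removal of the replicate-number means. For RNA they were Ubb (0.97), Cst3 (0.96), Rpl31-ps12 (0.93), Use1 (0.93) and Mrpl23 (0.93), of 12047 genes compared. For footprints they were Iqsec3 (0.92), Cxxc4, Ptchd2, Pogk and Snapc1 (each 0.88 to 0.90), of 10163 genes compared. None of them was a member. Among the members r with Atf4 RNA ran from -0.71 for Ppp1r15b to 0.72 for Ddit3, and r with Atf4 footprints from -0.32 for Ifrd1 to 0.44 for Chac1. These values describe 12 libraries that share depth and handling, and the best matches were picked from all genes compared.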

How the data were processed

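RNA-seq and ribosome profiling values of 24 libraries were used, in the groups that the labels give by assay, genotype and treatment. The authors trimmed reads, removed rRNA and tRNA reads, mapped the rest to mm10, kept unique reads without UMI duplicates and quantified them with RSEM. The authors deposited expected counts by gene, already whole numbers, over RefSeq transcripts for RNA and over coding sequences less 30 nt at each end for footprints. ComBat and DESeq2, which the study applied afterwards, were run as alternatives only. No column was left without a sample (0).

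Genes were filtered with filterByExpr (minimum count 10) in edgeR 4.0.16, R 4.3.3, scaled by TMM and tested with the two-sided quasi-likelihood F test (robust), on group plus replicate number, over 14516 genes for RNA and 12877 for footprints. TE was the interaction of assay and group over 24 libraries and 12785 genes. Benjamini-Hochberg adjustment covered all genes of a comparison. SEs came from the F statistic. Replicates were pools of slices, so p-values measure the spread between pools. Alternatives were DESeq2 1.42.0, ComBat in sva 3.50.0, other scaling and filters, no replicate block, a lysate block, halved footprint counts of replicates 2 and 3, where nearly all counts are even, and leaving out libraries. The main fits were also read at an adjusted p under 0.05. The test between replicate numbers was repeated with DESeq2, other scaling, no filter and single libraries left out, but not with halved counts. The scripts were tested on simulated data.

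RefSeq models on GRCm38.p6 (mm10) gave leaders and lengths, with 1 transcript a gene. The members and lists were chosen with earlier results of these data known. The 10 members were named in every comparison, and of each pathway list up to 3 called genes in each direction, or else the gene with the smallest p. The 5 genes most like Atf4 were taken among genes with a mean count of at least 50.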

Additional observations from a re-analysis of the deposited data

How the results depend on the processing

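No member was called in any of the 5 comparisons for RNA, footprints or TE under any of the 21 alternatives for RNA or the 22 each for footprints and TE (0 called throughout), and the lowest adjusted p of a member was 0.139, for Ppp1r15a TE after DHPG in WT without WT vehicle replicate 2 (0.139 to 0.981 over its alternatives). The alternatives include the main fit at an adjusted p under 0.05, a stricter threshold that could add no call. Of 2810 fitted member values, 2688 moved by less than 1 SE and 122 by more, none past the threshold. Without the replicate block 0 members were called as well. The study corrected its counts for batch, and the replicate numbers were taken here to stand for its batches, which the labels do not say. The numbers were checked for pairing: deviations from the group means of same-numbered libraries correlated above 0.1 in 11 of 18 pairs for RNA and 13 of 18 for footprints, and 11 of 12 RNA and 12 of 12 footprint libraries matched best with a library of their own number. Between replicate numbers, 2 to 3 members were called for RNA when 1 library was left out (without WT DHPG replicate 1, Chac1 was called at an adjusted p of 0.0569 and Atf4 was not) and 4 with no filter, where Chac1 was added, and 0 to 1 for footprints. All-gene counts moved more: without WT vehicle replicate 2, DHPG in WT gave 112 genes against 0 for RNA, 26 against 4 for footprints and 365 against 6 for TE, and TE between genotypes in vehicle gave 67 against 0, while leaving out replicate 3 gave 47 against 2 for footprints between genotypes in DHPG, and over all alternatives the RNA count between genotypes in vehicle ran from 6 to 31. The cause was not tested. With mean lengths over all coding transcripts, footprints per RNA in WT vehicle were 0.141 for Atf4, 0.517 for Ddit3 and 0.752 for Ifrd1. Against all 13273 coding genes that passed the RNA filter, whatever their footprints, Atf4 was at percentile 3.69, Atf5 at 1.30 and Ppp1r15a at 1.48. Over any coding transcript, Ddit3 had up to 25 upstream ATGs, Ifrd1 12 and Asns 2. Footprint counts were lowest for Atf5, Trib3, Ddit3, Chac1 and Ppp1r15a.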

Other observations

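Among the 26 ATF4 target genes tested outside the members, 4 also differed between replicate numbers in RNA at an adjusted p under 0.1 (edgeR; 2.54% of all genes), all with higher means in replicate 3 than in replicate 1. They were Gdf15, a secreted stress cytokine, Atf3, a transcription factor, Herpud1, a part of the degradation machinery of the endoplasmic reticulum, and Slc3a2, the heavy chain of amino acid transporters. They were chosen after their values were seen. Gdf15 RNA averaged 0.681 CPM over the 4 replicate 1 libraries, 0.946 over replicate 2 and 2.46 over replicate 3 (adjusted p 0.00370), and its footprints averaged 1.13, 2.38 and 4.43 CPM (adjusted p 0.00403). These levels are low, and the footprint counts of replicates 2 and 3, nearly all even, were not halved for this test. Atf3 RNA averaged 17.5, 17.5 and 22.0 CPM (adjusted p 0.0423), Herpud1 57.5, 60.3 and 68.5 CPM (adjusted p 0.0256) and Slc3a2 137, 152 and 155 CPM (adjusted p 0.0721). In footprints 2 of 26 were called (4.65% of all genes), Gdf15 and Phgdh. Phgdh, an enzyme of serine synthesis, went the other way, with 110, 96.6 and 85.9 CPM (adjusted p 0.00418), and its RNA did not pass the test (adjusted p 0.720). The median difference of the list between replicates 3 and 1 was 0.08 in RNA and -0.08 in footprints, against -0.0033 and -0.0034 over all genes. In the eIF2 kinases, the eIF2 and eIF2B subunits, the aminoacyl-tRNA synthetases, the chaperones and the other mRNAs with upstream reading frames, 0 genes were called between replicate numbers in either assay.

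With no filter on low counts, Atf5 and Trib3 could be tested for footprints and TE. Atf5 TE differed by -1.43 (SE 0.50, unadjusted p 0.00586, adjusted p 0.837) between Tsc2+/- and WT in vehicle and by -1.07 (SE 0.46, unadjusted p 0.0232, adjusted p 0.539) after DHPG in WT. Its interaction was 1.84 (SE 0.71, unadjusted p 0.0116, adjusted p 1). All rest on 1 to 12 footprints a library.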
